A study of Homo sapiens with 6 samples.

Results

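Dense clusters of open chromatin were described in hTERT-RPE1, an untreated wild-type human cell line that came from retinal pigment epithelium and was immortalised with telomerase. The assay was ATAC-seq, which cuts and tags accessible DNA in nuclei with the transposase Tn5. There were 6 libraries, and their titles name 3 as R1 and 3 as R2, with no label for what sets R1 and R2 apart. The authors deposited 1 merged list of peaks per set, so a set has no replicate spread, and every value below describes pooled lists and carries no test. The autosomes were cut into fixed bins of 50000 bp from position 0 (build hg38), and a bin was called dense when the R1 list and the R2 list each had at least 10 peak midpoints in it. By this rule 372 of 57485 autosomal bins (0.647%) were dense. The bins were thus chosen by peak counts, and those counts are a description.

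In chromatin, accessible stretches lie mainly at promoters, where transcription starts, and at enhancers, which bind transcription factors at a distance from a gene. Stretches in which many enhancers lie close together are known from many cell types and are often found at genes used strongly by that cell type. Stretches rich in short genes can hold many promoters close together. A peak of ATAC-seq does not tell these kinds of element apart, and no RNA was measured here.

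The promoters below are shown because the peaks of both lists cover them in some of the densest bins and because they differ in their letters. They are from RefSeq (GRCh38.p14), run from 250 bases before to 50 after a gene's start, and are written on the gene's own strand. Capitals mark matches on either strand to 1 of 6 short motifs: AP-1 (TGANTCA), TEAD (GGAATG), the GC box (GGGCGG), the CCAAT box (CCAAT), the TATA box (TATAAA) and ETS (CCGGAAG). The genes are MYH9, the heavy chain of non-muscle myosin IIA (chr22:36387918-36388217, minus strand), CAPN2, the catalytic subunit of a calcium-dependent protease (chr1:223701347-223701646, plus strand), RHOU (chr1:228644397-228644696, plus strand), and RARRES1, a gene known as a retinoic acid receptor responder (chr3:158732408-158732707, minus strand).
MYH9: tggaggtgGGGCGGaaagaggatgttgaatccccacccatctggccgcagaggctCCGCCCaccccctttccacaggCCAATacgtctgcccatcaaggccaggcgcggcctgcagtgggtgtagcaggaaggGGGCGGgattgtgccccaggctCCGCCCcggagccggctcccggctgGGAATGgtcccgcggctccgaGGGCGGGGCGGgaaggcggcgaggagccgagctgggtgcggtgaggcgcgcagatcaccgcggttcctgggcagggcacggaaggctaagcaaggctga
CAPN2: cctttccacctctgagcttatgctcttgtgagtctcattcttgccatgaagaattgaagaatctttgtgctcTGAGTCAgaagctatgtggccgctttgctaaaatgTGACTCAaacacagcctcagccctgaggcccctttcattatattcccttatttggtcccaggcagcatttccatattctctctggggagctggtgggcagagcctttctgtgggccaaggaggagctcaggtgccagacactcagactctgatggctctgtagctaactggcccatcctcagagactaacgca
RHOU: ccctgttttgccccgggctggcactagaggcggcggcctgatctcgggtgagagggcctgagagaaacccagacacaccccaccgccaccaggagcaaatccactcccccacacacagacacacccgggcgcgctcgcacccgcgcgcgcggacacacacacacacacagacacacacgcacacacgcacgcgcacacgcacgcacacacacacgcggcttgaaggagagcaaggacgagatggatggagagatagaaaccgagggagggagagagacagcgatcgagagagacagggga
RARRES1: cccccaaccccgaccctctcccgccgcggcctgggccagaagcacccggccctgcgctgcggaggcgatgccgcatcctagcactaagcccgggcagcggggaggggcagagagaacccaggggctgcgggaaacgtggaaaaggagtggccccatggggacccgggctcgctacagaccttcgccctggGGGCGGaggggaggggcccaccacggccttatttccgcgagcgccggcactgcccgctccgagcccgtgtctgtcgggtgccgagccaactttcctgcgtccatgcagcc
The MYH9 promoter had 8 matches, of which 6 were GC boxes, 1 was a CCAAT box and 1 a TEAD match, and its GC content was 70.3%. The CAPN2 promoter, 1 of the gene's annotated starts, had 2 AP-1 matches and no other, and its GC content was 50.3%. The RHOU promoter had 0 matches at a GC content of 64%, and the RARRES1 promoter had 1 GC box at 72%. A match is a description of letters and not of a bound site.

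Dense bins were the upper end of a smooth distribution, shown in the plot of bins by peak count. The median autosomal bin had 2 peaks in each list. Of the dense bins, 233 had a lower count of exactly 10, 89 of 11 and 29 of 12, and the next were 14 bins at 13 and 4 at 14. No bin had a lower count of 15 or 16, 1 bin had 17 and 2 bins had 18. Just outside the limit stood 547 bins with a lower count of 9, of which 274 had 10 or more peaks in the other list. There were 106 bins with exactly 10 peaks in each list and 273 with exactly 9 in each, so many bins on either side differ by 1 peak. By R1 alone 759 bins reached 10 peaks and by R2 alone 533 did.

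Counts of both lists were close within dense bins, which the rule favours by itself. It left out 387 of the 759 bins with at least 10 peaks in R1 and 161 of the 533 in R2. The median was 11 peaks in each list, 183 bins had equal counts, 331 differed by at most 1 and 362 by at most 2. R1 had the higher count in 116 bins and R2 in 73. The largest difference was 4 peaks, in 3 bins, all with 14 peaks in R1 and 10 in R2. They lie at SIX3, a transcription factor gene of eye and forebrain development (chr2:44900001-44950000), at VGLL3, which encodes a cofactor of TEAD factors (chr3:86950001-87000000), and at BCL9L, which encodes a cofactor of beta-catenin (chr11:118900001-118950000). Dense bins held 4108 R1 peaks and 4031 R2 peaks, which is 2.94% and 3.07% of the 139657 and 131287 autosomal peaks.

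**Figure D1:**
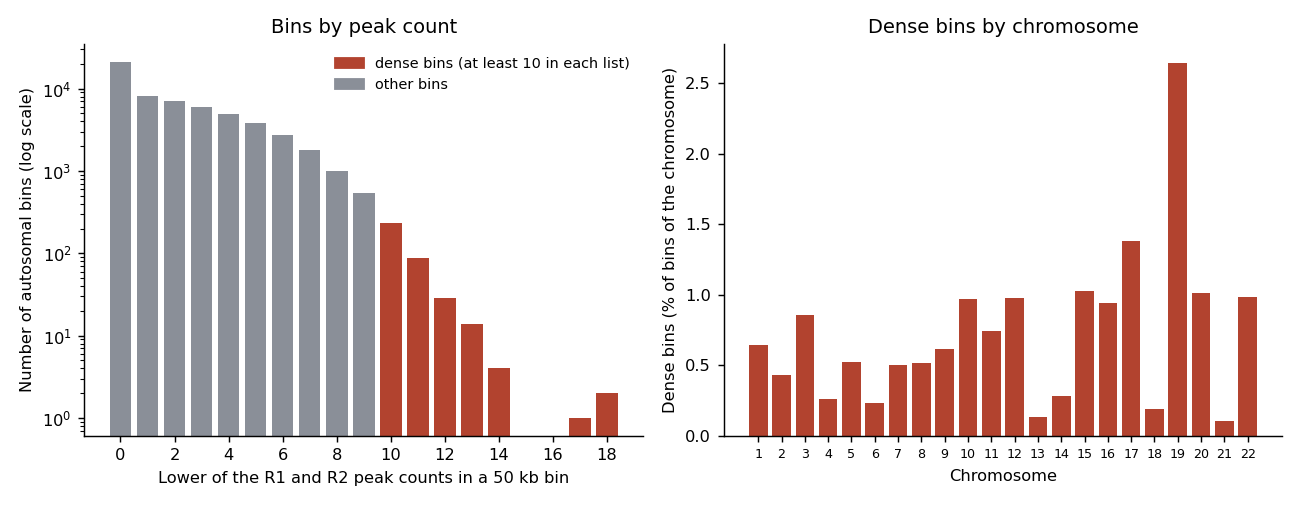
Left, number of autosomal bins of 50000 bp (log scale) by the lower of their R1 and R2 peak counts, with dense bins in red and other bins in grey; there were 21225 bins at a count of 0, 233 at 10 and 2 at 18. Right, dense bins as a percentage of all bins of each chromosome; chromosome 19 stands highest at 2.65% and chromosome 21 lowest at 0.107%.

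A dense bin was partly filled with peaks. Peaks covered a median of 16.5% of the bin in R1, with a range of 10.4% to 30.1%, and 16.7% in R2, with a range of 8.60% to 32.6%. Neighbouring midpoints within a bin lay a median of 3641.5 bp apart in R1 (quartiles 2015 and 6017 bp) and 3790.5 bp in R2 (quartiles 2084 and 6132 bp). Peaks were as wide in dense bins as elsewhere in R1, with medians of 681.5 bp in dense bins and 682 bp in other autosomal bins, and slightly narrower in R2, with 682 bp and 703 bp.

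Peaks of dense bins stood over more fragments but also over a higher background, and their fold enrichment was lower. The fold is the authors' value for each peak, and from it and the p-value were recovered the pileup, which is the number of fragments over the summit, and the local background. These measures come from the peaks that the rule counted and are given as a description. The median fold was 3.50 in R1 and 3.43 in R2 in dense bins, against 5.06 and 5.15 in other bins. The median peak of a dense bin lay at percentile 31.5 by fold in R1 and 29.1 in R2, against 50.7 and 50.8 for other bins. The median pileup was 110 fragments in R1 and 105 in R2 in dense bins, against 71 in each list elsewhere. The median background was 26.3 fragments in R1 and 25.5 in R2 in dense bins, against 11.4 and 11.3. Only 3.75% of R1 peaks and 4.14% of R2 peaks in dense bins had the lowest background of their list, against 31.4% and 30.9% in other bins. Bins with a lower count of 7 to 9 lay between, with median folds of 4.35 and 4.34, pileups of 93 and 89 and backgrounds of 18.6 and 18.0 in R1 and R2. The plot of cumulative shares shows that the curves for fold and for background were apart over nearly the whole range.

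**Figure D2:**
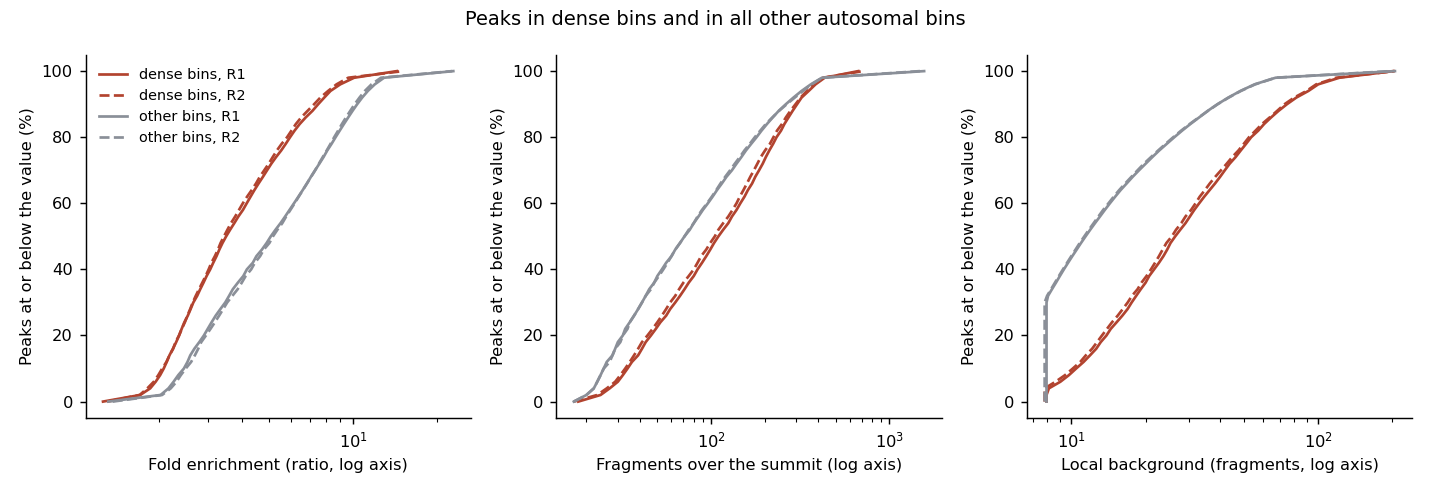
Cumulative share of peaks (%, vertical axis) by fold enrichment (ratio), fragments over the summit and local background in fragments (horizontal log axes), drawn at every second percentile for dense bins (red) and other autosomal bins (grey) in R1 (solid) and R2 (dashed). Dense bins lie to the left by fold, with medians of 3.50 and 3.43 against 5.06 and 5.15, and to the right by background, with medians of 26.3 and 25.5 against 11.4 and 11.3.

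Both lists found mostly the same peaks in dense bins. Of R1 peaks in dense bins 93.1% overlapped an R2 peak, against 87.1% in other bins, and of R2 peaks 93.7% overlapped an R1 peak, against 91.7%. The rule asks for many peaks in both lists, while other bins include those with a lower count of 0, so it raises these shares by itself. Dense bins also hold more peaks that could be overlapped, and the part of each in the shares was not tested. Among R1 peaks that overlapped an R2 peak, the median distance to the nearest R2 summit was 44 bp in dense bins, against 38 bp in other bins, and 73.8% lay within 100 bp, against 78.6%. Over all R1 peaks the medians were 51 bp in dense bins and 50 bp in other bins, and 68.7% lay within 100 bp, against 68.5%.

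The 12 densest bins were ranked by the lower count and then by the sum of both. The first, chr1:2650001-2700000, lies wholly inside TTC34, which encodes a tetratricopeptide repeat protein, and had 19 peaks in R1 and 18 in R2. From the lower to the higher coordinate the R1 folds were 6.08, 2.42, 2.34, 2.89, 2.73, 3.07, 2.69, 2.16, 2.42, 2.35, 1.75, 4.43, 2.86, 2.997, 1.94, 2.15, 1.85, 3.17 and 5.86. The R2 folds in the same order were 5.18, 1.93, 2.32, 2.02, 2.61, 2.61, 2.88, 2.58, 2.29, 2.21, 3.05, 1.87, 3.41, 2.24, 3.86, 2.81, 2.98 and 6.09. The bin thus held a strong peak near each edge and many weak ones between. The first peak was also the widest, at 3956 bp in R1 and 4004 bp in R2. Pileups had a median of 41 fragments in R1 and 39.5 in R2, below the medians of all autosomal peaks. None of these peaks lay within 1000 bp of an end of a protein-coding gene. Peaks of the bin that reached a −log10 q-value of 10 numbered 6 in R1 and 4 in R2, so its first rank rests on weak peaks.

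The third bin, chr22:36350001-36400000, covers the start and part of the body of MYH9 and had 17 peaks in each list. Its peaks stood over many fragments, with a median pileup of 161 in R1 and 164 in R2. The background was high too, with medians of 78.4 and 72.4, and the median folds were 2.65 and 2.50. The peak over the promoter printed above (chr22:36387811-36388682 in R1) had 307 fragments and a fold of 3.84 in R1 and 291 fragments and a fold of 3.57 in R2. By fold the strongest peaks of the bin lay upstream of the gene. They stood at chr22:36397014-36399136 in R1 with a fold of 5.35 and in R2 as a pair with folds of 5.33 and 5.13. Their pileups were 187 in R1 and 180 and 174 in R2, so the promoter peak stood higher by fragments. Unlike the TTC34 bin the MYH9 bin kept most of its peaks at a −log10 q-value of at least 10, with 13 in R1 and 12 in R2.

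The fourth bin, chr2:215350001-215400000, holds the lower end of FN1, the fibronectin gene, and part of ATIC, which acts in purine synthesis. It had 14 peaks in R1 and 17 in R2. Its peaks were weak, with median folds of 2.27 and 2.04, and 3 in R1 and 2 in R2 reached a −log10 q-value of 10. The fifth, chr2:36350001-36400000 with 14 and 16 peaks, covers the lower end of CRIM1, which encodes a membrane protein that binds bone morphogenetic proteins. It kept 12 and 13 peaks at that q-value. The sixth, chr1:223700001-223750000 with 14 and 15 peaks, lies almost wholly in CAPN2. Its leading peak, at chr1:223700440-223701761 in R1, had 545 fragments and a fold of 7.71 in R1 and 528 fragments and a fold of 7.30 in R2, and it covers the CAPN2 promoter with the 2 AP-1 matches.

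The other bins among the first 12 overlapped 1 protein-coding gene each or none. MACF1, whose product links actin and microtubules, contains the eighth (chr1:39150001-39200000, 13 and 14 peaks). CLIC4, a chloride intracellular channel gene, starts in the ninth (chr1:24700001-24750000), SH3BP4, an endocytosis gene, overlaps the tenth (chr2:234950001-235000000), and RARRES1 the twelfth (chr3:158700001-158750000), each with 13 peaks in each list. CLIC4 covers 9.11% of its bin, and 13 peaks in each list nearly all lay beside the gene. RARRES1 had the strongest peaks of the 12 bins by fold, with a highest fold of 10.9999 in R1 and 11.7 in R2. Its promoter peak had 153 fragments and a fold of 6.69 in R1 and 177 fragments and a fold of 6.91 in R2. The map of peaks shows that most peaks of these bins stand in the same place in both lists.

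**Figure D3:**
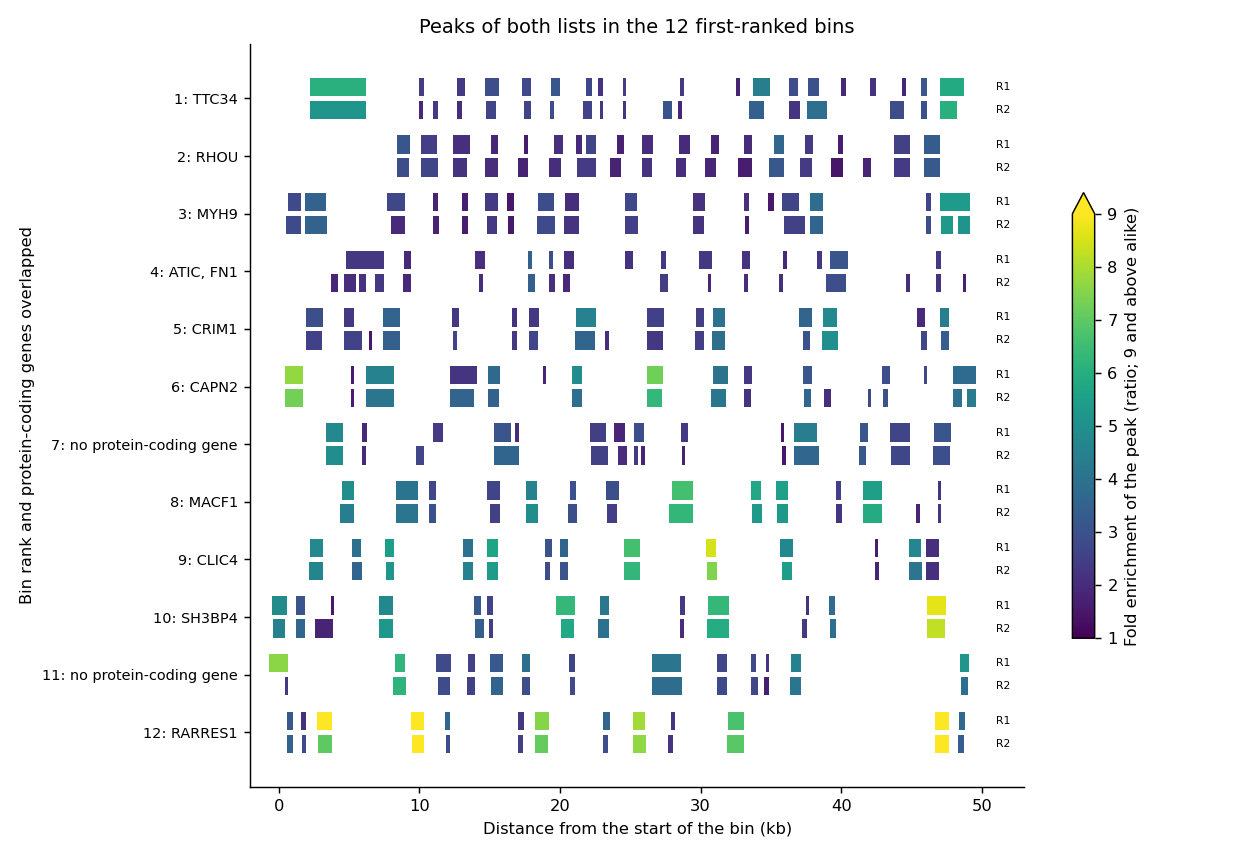
Peaks of R1 (upper row of each pair) and R2 (lower row) in the 12 first-ranked bins, by distance from the start of the bin (kb, horizontal axis), coloured by fold enrichment (ratio, 9 and above alike). The TTC34 bin has 19 and 18 peaks, most of them dark, while the RARRES1 bin has 13 in each list with folds of up to 10.9999 and 11.7.

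The second bin, chr1:228600001-228650000, had 18 peaks in each list and holds 17 genes of 5S ribosomal RNA in a row (chr1:228610266-228646158). The row reaches past the start of RHOU, so that its last copy, RNA5S17, lies within the RHOU interval. The 5S RNA is a part of the large ribosomal subunit, is made by RNA polymerase III, and its genes lie in nearly identical tandem copies. Each gene is 121 bp long, and their lower ends lay a median of 2241 bp apart. Over the array 17 peaks stood in each list, with midpoints a median of 2213 bp apart in R1 and 2219 bp in R2, so the peaks followed the spacing of the copies. The map of the array shows about 1 peak per copy.

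Both lists differed in where those peaks lay. In R1, 6 of the 17 genes were overlapped by a peak, and in R2 17 of 17 were. Summits lay a median of 539 bp above the lower end of the nearest gene in R1 and 361 bp in R2. At 300 to 400 bp stood 0 summits in R1 and 9 in R2, and at 500 to 550 bp stood 10 in R1 and 6 in R2. The pileups were far above the usual, with a median of 314 fragments and a range of 268 to 670 in R1, and a median of 360 and a range of 295 to 628 in R2. The background was 162 in R1 and 182 in R2, which lie at percentiles 99.98 and 99.989 among autosomal peaks, and the median folds were 2.03 and 2.06. Reads from such copies map to several places, how they were assigned is not given in the sources used here, and their part in these peaks was not tested. The peak over the RHOU promoter (chr1:228643755-228644904 in R1, 314 fragments and a fold of 2.54) also overlaps the copy RNA5S16. In R2 it had 366 fragments and a fold of 2.38.

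**Figure D4:**
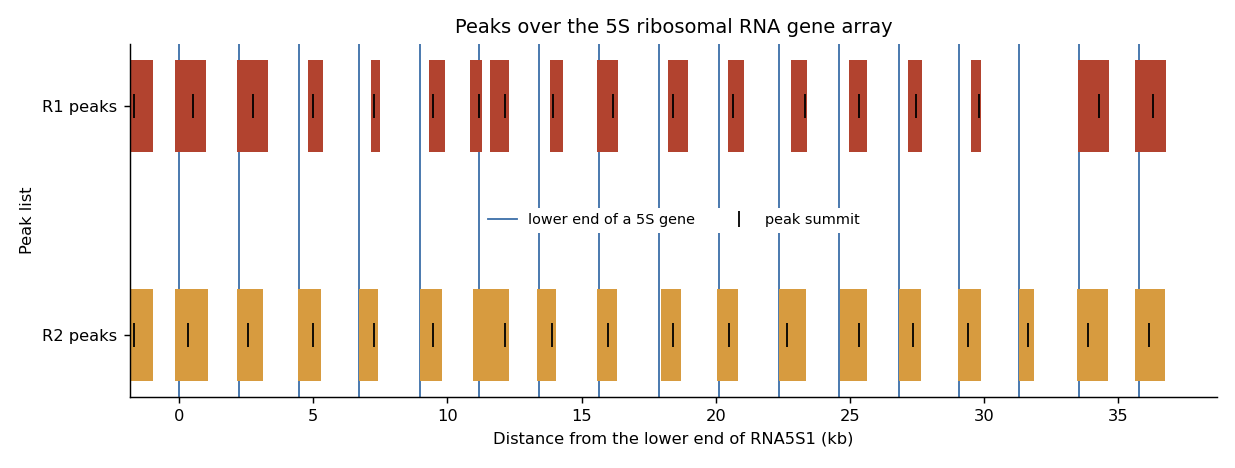
Peaks of R1 (top) and R2 (bottom) over the 5S ribosomal RNA genes by distance from the lower end of RNA5S1 (kb, horizontal axis); blue lines mark the lower ends of the 17 genes and black ticks the summits. Peaks recur about every 2213 bp in R1 and 2219 bp in R2, and R2 peaks overlap 17 genes while R1 peaks overlap 6.

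Dense bins lay mostly at protein-coding genes, which the rule did not use. Of the 372 dense bins 333 overlapped a protein-coding gene, or 89.5% (95% Wilson interval 86.0% to 92.2%), against 55.5% of the other autosomal bins. The share was 83.7% among the 3344 bins with a lower count of 7 to 9. The share varied among dense bins, with 89.3% at a lower count of 10, 89.9% at 11, 100% of 29 bins at 12 and 71.4% of 14 bins at 13. The other bins include unassembled stretches, and such intervals cover counting error only, since neighbouring bins are not independent. Gene ends numbered 2.10 per dense bin, against 0.656 per other bin.

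Dense bins ranged from gene-rich stretches to stretches without a protein-coding gene. A single protein-coding gene was overlapped by 185 dense bins (49.7%, against 41.6% of other bins), 2 genes by 76 (20.4%, against 9.86%) and 3 or more by 72 (19.4%, against 4.05%). The 39 bins without a protein-coding gene made up 10.5%, against 44.5% of other bins. Of the dense bins 81 (21.8%) lay wholly inside 1 gene, and 129 (34.7%) had no peak within 1000 bp of a gene end in either list. At the other extreme 32 bins had at least 5 such peaks in each list. These counts are given for dense bins only, without a share over other bins, and do not set dense bins apart. The most genes in a bin were 9, at chr16:67150001-67200000, which holds the genes of the transcription factors HSF4 and E2F4, and at chr11:64200001-64250000, which holds VEGFB, a growth factor gene. In both bins 8 of the R1 peaks lay at gene ends, as did 9 and 8 of the R2 peaks. Gene-rich bins had higher pileups and lower folds. With 3 or more genes the median pileup was 151 in R1 and 134.5 in R2, against 99 and 93 in bins without a gene, and the median fold was 3.25 and 3.16, against 4.03 and 4.05.

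Taken over peaks, gene ends were only a little more frequent in dense bins. Within 1000 bp of an end of a protein-coding gene lay 14.6% of R1 peaks (95% Wilson interval 13.5% to 15.7%) and 14.6% of R2 peaks (13.6% to 15.7%) in dense bins, against 12.6% and 12.5% in other bins. Peaks of the same bin are not independent, so these intervals cover counting error only and are too narrow. Promoters of the RefSeq table were overlapped by 7.40% and 7.67% of peaks in dense bins, against 7.66% and 8.16%. Bodies of protein-coding genes held 66.0% and 66.1% of the peaks, against 58.2% in each list. Most peaks of dense bins thus lay within genes and away from their ends.

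In all, 606 of 19122 autosomal protein-coding genes (3.17%) overlapped a dense bin, and 543 had a start or end in one. Their median length was 24040 bp, against 24522.5 bp for all other autosomal protein-coding genes. A single dense bin was overlapped by 580 of them, 2 by 23, 3 by 2 and 4 by 1. The gene with 4 was DLG1, a scaffold protein of cell polarity, which is 256762 bp long and had 47 R1 and 46 R2 peaks in its dense bins. The genes with 3 were WWTR1, which encodes the transcriptional coactivator TAZ of Hippo signalling, with 34 peaks in each list, and EXT1, an enzyme of heparan sulfate synthesis, with 30 and 31 peaks.

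Most dense bins did not touch another, though only 0.647% of all autosomal bins were dense. How many would touch if placed without regard to each other was not tested. Of the runs of touching dense bins 312 were single bins, 27 were pairs and 2 were triples. The triples lay at DLG1 (chr3:197150001-197300000, 37 R1 and 35 R2 peaks) and at WWTR1 with TM4SF4, a tetraspanin-like membrane protein gene (chr3:149500001-149650000, 34 and 34 peaks). The pairs with the most peaks lay at MYH9 (chr22:36300001-36400000, 28 and 30 peaks), in the LINC-PINT stretch described next (chr7:130850001-130950000, 27 and 27) and at MACF1 (chr1:39100001-39200000, 26 and 26). The DLG1 bins had weak peaks, with median folds of 2.26 to 2.54 in R1. The bins next to dense bins, 669 in number and not dense, had a median of 6 peaks in each list, against 2 in all bins that were not dense.

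Of the 39 dense bins without a protein-coding gene, 33 overlapped a long non-coding RNA gene and 3 a microRNA gene. Both counts are given without a share over other bins, so they describe these bins only. The nearest protein-coding gene lay a median of 44167 bp away and at most 659730 bp. The first-ranked of them, seventh of all, was chr7:130850001-130900000 with 14 peaks in each list, which holds MIR29A, MIR29B1 and part of LINC-PINT, a long non-coding RNA gene known as a target of p53. Its nearest protein-coding gene, KLF14, lies 115794 bp away. The next bin along, chr7:130900001-130950000, had 13 peaks in each list and a median pileup of 208 in R1 and 193 in R2. The eleventh bin of all, chr3:134300001-134350000 with 13 peaks in each list, lies 5345 bp from AMOTL2, an angiomotin family gene that is a known target and regulator of YAP. The bin at chr12:95600001-95650000, also with 13 and 13, lies 7807 bp from NTN4, which encodes the basement membrane protein netrin 4. The bin at chr22:27100001-27150000, with 13 and 13, lies 469332 bp from CRYBA4, a lens crystallin gene, and had median folds of 4.17 and 4.33.

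MicroRNA genes lay in 34 of the 372 dense bins (9.14%), a count given without a share over other bins. Of 1793 autosomal microRNA genes 44 (2.45%) lay in a dense bin. Of the 44, 10 (22.7%) were overlapped by a peak of each list, against 206 of 1749 (11.8%) in other bins. The rule picks bins with many peaks and so raises this share by itself. The microRNAs below were picked after their bins were seen, because 2 bins hold pairs that share a seed, the bases 2 to 8 by which a microRNA finds its targets. The seed is in capitals and the sequences are from RefSeq (GRCh38.p14).
miR-29a-3p: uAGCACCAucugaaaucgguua
miR-29b-3p: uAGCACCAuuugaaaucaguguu
miR-195-5p: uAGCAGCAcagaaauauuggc
miR-497-5p: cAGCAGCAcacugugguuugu
The seed of miR-29a-3p and miR-29b-3p is AGCACCA. The family is known to target collagen and other matrix transcripts. MIR29A (chr7:130876747-130876810) lies 788 bp from the nearest R1 peak and 716 bp from the nearest R2 peak, and MIR29B1 (chr7:130877459-130877539) lies 1087 and 1135 bp away. The seed AGCAGCA is that of miR-195-5p and miR-497-5p, whose genes lie side by side on chromosome 17 in a bin with 10 peaks in each list, 2101 bp (MIR195) and 1827 bp (MIR497) from the nearest R1 peak. The third cluster, MIR23B, MIR27B and MIR24-1 on chromosome 9, lies in a bin with 10 peaks in each list within AOPEP. None of these genes was itself covered by a peak.

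Members of 16 gene lists were counted by their overlap with a dense bin, beside 3.17% over all autosomal protein-coding genes. Members and lists were picked with earlier results known, so the counts are descriptions, and longer genes meet more bins. Genes of the actin cytoskeleton and focal adhesions stood highest, with 8 of 29 (27.6%). They were MYH9, TPM1 (tropomyosin 1, 13 peaks in each list), ITGA5 (a fibronectin receptor subunit, 15 and 12), PXN (paxillin), PDLIM7, ACTG1 (cytoplasmic gamma actin), TPM4 and TLN1 (talin 1). The list's median gene length was 35465 bp, against 24490.5 bp over all autosomal protein-coding genes, and the part of length was not tested. The order of the lists depended on the setting. At a −log10 q-value of at least 5 the actin list had 2 of 29 (6.90%), below TGF-beta signalling with 4 of 23 (17.4%) and the matrix with 3 of 24 (12.5%), against 1.29% of all genes. When joined regions were counted it had 5 of 29 (17.2%), below 5 of 23 (21.7%) and 5 of 24 (20.8%). With at least 8 peaks in each list it had 20 of 29, against 13.7% of all genes, and with the grid shifted by 25000 bp it had 8 of 29.

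Genes of the extracellular matrix and of TGF-beta signalling came next. Of 23 TGF-beta pathway genes 5 overlapped a dense bin (21.7%, median length 80614 bp), but 2 did with the grid shifted by 25000 bp (8.70%). These were the transducer SMAD3 (12 R1 and 13 R2 peaks), the ligand TGFB2 (11 and 11), LTBP3 (10 and 11) and LTBP2, of the family of latent TGF-beta binding proteins, and the inhibitor SMAD7. Of 24 matrix genes 5 did (20.8%, median length 77283.5 bp), on the shifted grid too. FN1 led them, and SPARC (12 and 13), FBN1, the fibrillin-1 gene (12 and 12), and TNC, the tenascin C gene, were among the others. SMAD3 wholly contains this bin, with median pileups of 244.5 in R1 and 198 in R2, while the FBN1 bin had 43 in each list.

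Smaller counts came from other signalling lists. Of 24 YAP/TAZ and TEAD targets 4 overlapped a dense bin (16.7%), namely CRIM1, NUAK2 (11 and 11), TGFB2 and CCN2 (10 and 10), a matricellular protein gene. Among 18 immediate early and AP-1 genes the count was 3 (16.7%), namely JUNB, an AP-1 subunit (12 and 12), IER3 (11 and 11) and FOSL2, another AP-1 subunit (11 and 10). That list has short genes, with a median length of 6382 bp. The JUNB and IER3 bins held 4 protein-coding genes each, and 6 or 7 of their peaks lay at gene ends. Of 20 growth factor receptor genes 3 did (15%), namely LRP1 (12 and 11), EPHA2 (11 and 11) and IGF1R (10 and 10). TGFB2 counts for both lists that hold it. At a −log10 q-value of at least 5 the YAP/TAZ, immediate early and receptor lists had 2 of 24, 1 of 18 and 1 of 20, against 1.29% of all genes. On the grid shifted by 25000 bp they had 5, 2 and 3, against 3.05% of all genes. When joined regions were counted they had 4, 1 and 3, against 2.10% of all genes.

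Counts for genes of the tissue of origin and of other cell types were 0 to 2 per list, and they moved with the bin grid. Of 18 genes that serve the pigment epithelium or the visual cycle 2 overlapped a dense bin (11.1%), STRA6, a retinol transporter gene (11 and 10), and RDH5, a retinol dehydrogenase gene (10 and 10), whose bin holds 5 protein-coding genes. Of 14 eye field and pigment epithelium transcription factors 1 did (7.14%), SIX3. On the grid shifted by 25000 bp the visual cycle list had 1 of 18 and the eye list 3 of 14 (21.4%). Of 19 epithelial genes 2 did, the keratin gene KRT7 (12 and 11) and TJP3 (10 and 10), although KRT7 had no peak within 1000 bp of either gene end. Of 24 housekeeping genes 2 did (8.33%), RPLP0 (11 and 11), whose bin also holds PXN, and YWHAZ (10 and 10). Of 15 neuron and glia genes 1 did, TUBB3 (11 and 12). On the shifted grid the epithelial and neuron lists had 0 and the housekeeping list 1. No gene was counted among 11 pigment synthesis genes, 23 cell cycle and replication genes, 18 chromatin architecture genes, 15 blood cell genes and 14 hepatocyte genes. On the shifted grid 2 of the 18 chromatin architecture genes (11.1%) and 1 of the 23 cell cycle genes were counted, against 3.05% of all genes. With lists of this size, 1 gene more or less moves the share by several percentage points. The plot of gene lists shows these shares beside the value for all genes.

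**Figure D5:**
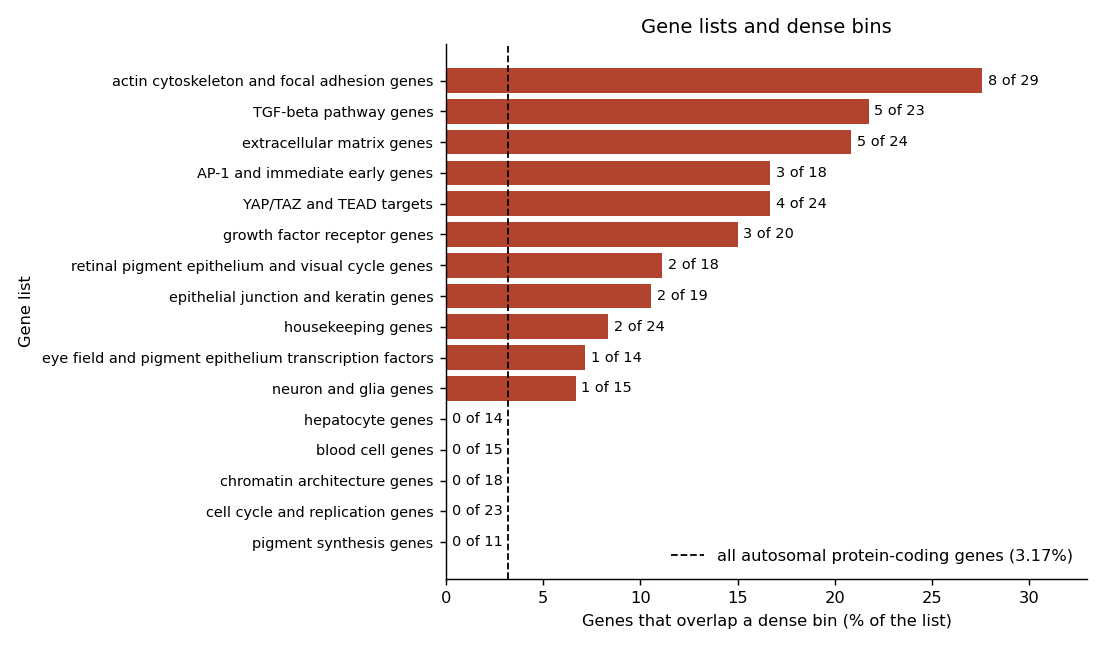
Share of each gene list that overlaps a dense bin (%, horizontal axis), with the number of genes beside each bar and the value for all autosomal protein-coding genes (3.17%) as a dashed line. Actin cytoskeleton and focal adhesion genes reach 8 of 29, and 5 lists have 0.

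The labelled cell type was checked at gene ends only. Of 10 markers of retinal pigment epithelium, RLBP1, BEST1, MERTK, PMEL, MITF and OTX2 had a gene-end peak in each list, and RPE65, LRAT, TYR and TTR had none in either list. Among markers of other cell types, SPI1 and CD3E of blood cells and SYT1, RBFOX3 and SNAP25 of neurons also had a gene-end peak in each list. PTPRC of blood cells had 1 in R1 and 0 in R2. The mesenchymal markers VIM, COL1A1, FN1 and CDH2 had a gene-end peak in each list. Of the epithelial markers EPCAM had one in each list, CDH1 in R2 only, and KRT7 and GRHL2 in neither. Gene-end peaks alone thus did not tell cell types apart. None of these markers overlapped a dense bin except KRT7 and FN1.

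Promoters in dense bins were richer in GC than promoters elsewhere. RefSeq promoters were held for 15100 of 19122 autosomal protein-coding genes (78.97%), and 497 promoters of 340 genes lay in dense bins. Their median GC content was 67.7%, against 62.3% for the 20658 promoters in other autosomal bins. A peak of each list overlapped 75.1% of them, against 65.3%, a share that the rule raises by itself because it picks bins with many peaks. The GC box was found in 72.0% of promoters in dense bins, against 56.2% in other bins and 56.6% of all autosomal promoters. The CCAAT box was found in 27.6%, against 34.5% in other bins and 34.4% of all. The TATA box was found in 5.63%, against 9.60% and 9.51%. The AP-1 motif was found in 6.24%, against 6.08% in other bins and 6.08% of all, the TEAD motif in 10.3%, against 12.3% and 12.2%, and the ETS motif in 11.7%, against 12.9% in each.

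Among promoters overlapped by a peak of each list the gap in the GC box was smaller. It was found in 74.3% of the 373 such promoters in dense bins, against 69.8% of 13485 in other bins, and the GC content was 68% and 65.3%. The AP-1 motif was found in 7.51% of these in dense bins, against 5.12% in other bins, and the TEAD motif in 10.99%, against 11.1%. The TATA box was found in 5.63%, against 5.55%, so that the gap seen over all promoters was not seen here. The CCAAT box was found in 30.8%, against 35.1%, and the ETS motif in 13.9%, against 17.8%. The CAPN2 promoter printed above is among the 31 with the AP-1 motif, counted over all 497 promoters in dense bins.

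Chromosomes held dense bins unevenly. Chromosome 19, with 1.24 protein-coding genes per bin, had 31 dense bins or 2.65% of its bins, and chromosome 17 had 23 (1.38%) at 0.702 genes per bin. Chromosome 3 had the most, 34 bins (0.858%), at only 0.269 genes per bin, while chromosome 6 had 8 (0.234%) at 0.307. Chromosome 21 had 1 (0.107%), chromosome 13 had 3 (0.131%) and chromosome 18 had 3 (0.187%). On chromosome 10 the dense bins were nearly all on 1 side. The stretch after position 60000000 had 25 dense bins among 1476 (1.69%), against 1 among 1200 (0.0833%) before it. The hTERT-RPE1 line is known to carry extra material of the long arm of chromosome 10. After that position there were 0.331 genes and 3.58 R1 peaks per bin, against 0.204 and 2.08 before it. The median R1 pileup was 68 fragments, against 71, and the median R1 background 13.8, against 10.7. The part of the extra material in these counts was not tested.

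The rank order changed when only strong peaks were counted. With a −log10 q-value of at least 10 for each peak, 47 of the 372 bins still had at least 10 peaks in each list. The 5S array led them with 18 R1 and 17 R2 peaks, and MYH9 (13 and 12), CRIM1 (12 and 13), MACF1 (13 and 12) and CLIC4 (12 and 12) followed. Next stood the bin beside AMOTL2 (13 and 11), RARRES1 (11 and 13) and a bin with 6 protein-coding genes on chromosome 16 that holds METRN and CIAO3 (12 and 11). The bins at TTC34, FN1, CAPN2, SH3BP4 and MIR29A did not meet the rule at that limit.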

How the data were processed

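ATAC-seq of hTERT-RPE1 cells (6 libraries, 3 in each of the sets R1 and R2) was analysed from 1 merged peak list per set. Positions are in hg38, the build that the submitters' processing notes name. For the aligner, the peak caller and any shift of reads for Tn5, nothing is given in the sources used here. For each peak the authors deposited a score, a ratio (the fold enrichment), the −log10 of its p-value, the −log10 of its q-value, and the offset of the summit. They belong to single peaks and were used within a list only. The score was not used.

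The pileup and the local background were computed from the fold, read as (pileup + 1)/(background + 1), and from the p-value, read as a Poisson tail above the pileup. Whole fragment numbers matched the authors' p-value to 0.001 in −log10 units for 100% of peaks in each list. The relation is inferred from the values, and depth per library is unknown. The lowest pileup was 17 fragments in each list. Peaks were put into bins of 50000 bp by their midpoint, and bins were numbered to the last with a peak or gene. Genes, promoters and microRNAs are from RefSeq (GRCh38.p14, the same build as hg38). No genome sequence was used here.

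The bins, gene lists and markers were chosen with earlier results of these data known. The named genes follow a rule: the 12 first-ranked bins, the 5 longest runs, the 5 first-ranked bins without a protein-coding gene, up to 3 members per list, the 3 bins with the largest difference in counts, and the promoters of up to 6 bins, of which 4 are printed. Other genes named were chosen after their values were seen. Some items that the rule takes are not reported here. The scripts were tested on simulated data. Software was Python 3.11.15 with numpy 2.4.6, scipy 1.17.1, pandas 2.3.3 and matplotlib 3.10.9. Alternatives were stricter q-values, a shifted grid, summits, other minimum counts, single lists, joined regions and gene-end windows of 500 and 2000 bp.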

Additional observations from a re-analysis of the deposited data

Results flagged for a closer look

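Peaks on chromosome X lie outside the autosomal bins of the report and are given here as a signal in data that its comparisons did not use. R1 had 3208 peaks there and R2 had 3064. Of the bins of chromosome X 2 met the same rule. They lie at WWC3 (chrX:10000001-10050000, 13 R1 and 11 R2 peaks) and at FLNA, EMD and RPL10 (chrX:154350001-154400000, 11 and 10 peaks). FLNA encodes filamin A, a crosslinker of actin, and was counted in no list share above.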

How the results depend on the processing

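No paired analysis was possible because each set is 1 pooled list, so the replicate numbers in the titles have no columns of their own and no library could be left out. The 372 dense bins, 3.004% of autosomal peaks, 89.5% of bins at a protein-coding gene, 14.6% of peaks at gene ends, 543 genes and median fold percentile of 30.3 (mean of both lists) are the values set against the alternatives. All 6 kept their size under summits in place of midpoints and under a grid shifted by 25000 bp, although only 182 of the 372 bins were overlapped by 1 of the 375 dense bins of the shifted grid. The same held without the 2 first-ranked bins, an alternative chosen after seeing the data. A −log10 q-value of at least 5 left 149 bins, 1.38% of peaks, 85.9% at a gene, 221 genes and percentile 36.3. At least 10 left 47 bins, 0.523% of peaks, 17.04% of peaks at gene ends, 83 genes and percentile 38.8. At least 8 peaks in each list gave 1921 bins, 12.98% of peaks, 85.4% at a gene, 13.7% at gene ends, 2356 genes and percentile 37.0. At least 12 gave 50 bins, 0.480% of peaks, 81 genes and percentile 22.8. R1 alone gave 759 bins, 5.64% of peaks, 16.1% at gene ends and 1175 genes, and R2 alone 4.12% of peaks. Joined regions gave 2.11% of peaks, 13.4% at gene ends, 356 genes and percentile 32.97. Gene-end windows of 500 and 2000 bp gave 11.2% and 20.1%. Of the counts of gene lists under these alternatives, 67 moved by over 1.5 times or to or from 0, and 93 did not. The 93 include counts that stayed at 0 and all 16 without the 2 first-ranked bins, so they do not measure stability. The shifted grid moved 8 of the 16 lists and summits moved 0. At least 85.4% of bins overlapped a protein-coding gene under every alternative above that picks bins. The causes were not tested. Depth per library is unknown, so what depth limits could not be measured.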
